A study of Homo sapiens with 30 samples.

Results

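The snoRNA host genes SNHG1, SNHG3, SNHG5, SNHG6, SNHG7, SNHG8, SNHG12, SNHG15, GAS5 and ZFAS1 were followed in G401 cells, a malignant rhabdoid tumor line that lacks SNF5. They are 10 genes chosen by name, and 9 of them are among the 20367 gene symbols of the PRO-Seq count table: 8 under these symbols, and ZFAS1 as ZNFX1-AS1, matched by its RefSeq accession NR_003606. SNHG3 has no row of its own in that table, and it was followed only in the peak lists. All cells carried a TET-inducible transgene encoding EGFP (the control), OmoMYC (a mutant form of MYC that blocks its binding to target genes) or SNF5 (the product of SMARCB1), and doxycycline (1 μg/ml, 24 h) was given to all of them, the EGFP control included. There are 2 samples per construct for MYC ChIP-Seq and 3 for each of ATAC-Seq and PRO-Seq. The constructs are transgenes in 1 cell line, so a difference between constructs cannot be told apart from a difference between the cell populations that carry them.

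A snoRNA host gene carries small nucleolar RNAs in its introns, and these are released when the host transcript is spliced. Box C/D snoRNAs guide ribose methylation of ribosomal RNA and box H/ACA snoRNAs guide its pseudouridylation, so host genes feed ribosome production. Many of the long non-coding hosts begin with a terminal oligopyrimidine tract, which ties their spliced RNA to translation. MYC, which binds the E-box CACGTG together with MAX, is known for driving ribosome production. By the RefSeq gene bounds of GRCh38.p14, SNHG1 spans 9 such genes (8 of them box C/D, SNORD22 and SNORD25 among them), SNHG5 spans 2 box C/D genes (SNORD50A and SNORD50B), SNHG6 spans 1 (SNORD87), ZFAS1 spans 3 (SNORD12, SNORD12B and SNORD12C) and GAS5 spans 11, of which 10 are box C/D. SNHG3 (SNORA73A and SNORA73B), SNHG7 (SNORA17A and SNORA17B), SNHG8 (SNORA24) and SNHG15 (SNORA9) span box H/ACA genes, and SNHG12 spans 3 box H/ACA genes and 1 box C/D gene.

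The sequence under the MYC peak is shown for the 5 members in which CACGTG lies within 100 bp of a summit, and for SNHG1, which had a strong peak in both EGFP samples without it. Each is the GRCh37 (hg19) sequence from 100 bp before to 100 bp after the MYC summit of EGFP sample 1 (sample 2 for SNHG5), written 5′ to 3′ on the strand of the gene, with CACGTG in capitals. SNHG15 is chr7:45025942-45026142 (minus strand), SNHG8 chr4:119199991-119200191 (plus), GAS5 chr1:173836637-173836837 (minus), SNHG5 chr6:86388909-86389109 (minus), SNHG7 chr9:139622746-139622946 (minus) and SNHG1 chr11:62623410-62623610 (minus).
SNHG15: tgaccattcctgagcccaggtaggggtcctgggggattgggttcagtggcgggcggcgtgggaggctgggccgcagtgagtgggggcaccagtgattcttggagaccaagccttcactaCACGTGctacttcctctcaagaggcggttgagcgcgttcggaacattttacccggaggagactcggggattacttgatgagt
SNHG8: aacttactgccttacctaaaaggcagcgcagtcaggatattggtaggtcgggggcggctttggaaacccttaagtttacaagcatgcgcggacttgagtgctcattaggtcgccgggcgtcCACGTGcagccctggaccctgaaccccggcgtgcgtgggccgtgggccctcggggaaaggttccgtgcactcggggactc
GAS5: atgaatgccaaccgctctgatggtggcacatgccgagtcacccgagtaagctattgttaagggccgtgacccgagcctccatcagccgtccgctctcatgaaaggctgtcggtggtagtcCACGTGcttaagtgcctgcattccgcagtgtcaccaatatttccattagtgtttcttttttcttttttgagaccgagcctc
SNHG5: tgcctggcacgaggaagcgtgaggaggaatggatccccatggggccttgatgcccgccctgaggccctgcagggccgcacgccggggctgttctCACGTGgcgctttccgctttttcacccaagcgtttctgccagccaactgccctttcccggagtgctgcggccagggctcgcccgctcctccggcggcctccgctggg
SNHG7: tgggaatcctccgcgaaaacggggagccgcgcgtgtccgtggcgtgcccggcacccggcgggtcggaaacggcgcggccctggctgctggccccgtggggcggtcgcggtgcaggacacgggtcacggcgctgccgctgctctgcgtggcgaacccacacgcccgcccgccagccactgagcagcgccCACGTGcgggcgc
SNHG1: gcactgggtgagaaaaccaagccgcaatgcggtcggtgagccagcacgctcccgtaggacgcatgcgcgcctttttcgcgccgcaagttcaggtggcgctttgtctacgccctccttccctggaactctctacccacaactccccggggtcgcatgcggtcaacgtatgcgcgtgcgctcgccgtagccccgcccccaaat

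The distance from the E-box to the summit differed between the EGFP samples. From the summit of sample 1, its first base is 19 bp away in SNHG15, 20 bp in GAS5, 21 bp in SNHG8 and 88 bp in SNHG7. From that of sample 2, the nearest is 63 bp away in SNHG15, 89 bp in GAS5 and 17 bp in SNHG7, and SNHG8 has none within 100 bp. In SNHG5, with a peak in sample 2 only, it is 6 bp away. The sample 1 summits of SNHG15 and GAS5 lie 217 and 388 bp inside the gene, in introns of 13 of the 14 and 86 of the 88 GENCODE transcripts that span them. The SNHG8 summit lies 174 bp inside the gene in sample 1, in an exon of 6 and an intron of 8 transcripts, and at position -85, upstream of the start, in sample 2. The summits shown for SNHG7, SNHG5 and SNHG1 lie upstream of the start, at positions -210, -558 and -150. CACGTG reads the same on both strands. It was found within 250 bp of the start in 5 of 10 members (SNHG5, SNHG7, SNHG8, SNHG15 and GAS5), in 11.1% of all 20367 genes and in 37.6% of the 878 genes with a MYC peak in both EGFP samples. In GAS5 and SNHG5 the copy at the summit lies outside that window, at positions 408 and -564 from the start. No CACGTG was found within 100 bp of the summits at SNHG1, SNHG12 and ZFAS1. CACGCG, which differs from it by 1 base, was found on either strand within 250 bp of the start in 4 of 10 members (SNHG1, SNHG3, SNHG12 and SNHG15). The shares were 20.3% of all genes and 40.7% of the 878. In SNHG1 it lies at position -81 on the opposite strand, inside the sequence shown.

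In EGFP cells 8 of the 10 members had a listed MYC peak, with its summit no more than 1 kb from the start. Peaks were called in each sample by the authors with MACS2, which gives each a fold enrichment over the local background. With both EGFP samples required, 6 members had a peak (SNHG1, SNHG7, SNHG8, SNHG15, GAS5 and ZFAS1), where 4.31% of all genes did. The peaks at SNHG1 and ZFAS1 also lay close to the start of another gene, as described below. SNHG15 had the largest fold enrichment of the members, 13.6 in EGFP sample 1 and 13.2 in sample 2, which ranked 4th of 940 and 63rd of 5396 peaks. SNHG1, second in sample 1, had 10.5 and 8.98. The values were 5.79 and 8.47 at SNHG7, 6.49 and 8.18 at SNHG8, 7.18 and 3.19 at GAS5, and 4.62 and 9.37 at ZFAS1. The samples did not order these 4 genes alike: ZFAS1 was the lowest in sample 1 and the highest in sample 2. SNHG5 (6.86) and SNHG12 (4.57) had a peak in EGFP sample 2 only, a sample with a MYC peak at 23.1% of all genes against 4.35% in sample 1. None was listed within 1 kb of the start of SNHG3 or SNHG6. At SNHG3 a summit of EGFP sample 2 lay just outside, 1006 bp past the listed start (fold enrichment 3.16), and within 1 kb of other annotated starts, so 9 members had a peak when any annotated start was used. SNHG6 had none at any of its starts. Within 500 bp of the listed start 7 members had one, SNHG5 being lost.

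With OmoMYC no member had a MYC peak, but neither OmoMYC list holds a peak to compare. Each holds 1 line, with the same position and values in both and a name that calls it fake, and it was taken as a placeholder and left out. A lack of peaks is thus not particular to the host genes. With SNF5, 4 members had a listed peak in sample 1 and 0 in sample 2, where 0.614% and 0.0786% of all genes had one. The 4 were SNHG15 (7.97), SNHG1 (6.77), SNHG7 (5.60) and GAS5 (4.96), and each value was below both EGFP values except that of GAS5, which lay between them. Among the 878 genes with a peak in both EGFP samples, 13.8% had one in SNF5 sample 1 and 1.82% in SNF5 sample 2. The SNF5 samples list 137 and 27 peaks in all. The lists hold no read counts, so a missing peak is a call below the threshold and not a measured absence of MYC. The difference between constructs was not tested here. The study tested read counts over its MYC peaks and reported less MYC binding across the genome with OmoMYC and with SNF5.

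**Figure D1:**
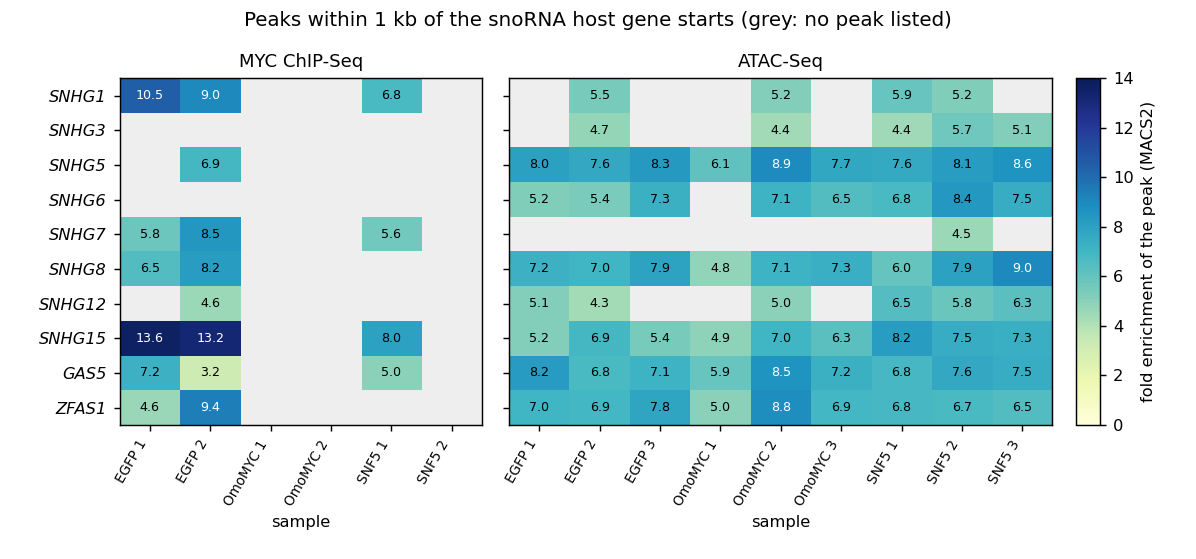
Fold enrichment of the strongest MYC ChIP-Seq peak (left, 2 samples per construct) and ATAC-Seq peak (right, 3 samples per construct) within 1 kb of the start of each snoRNA host gene. Grey marks samples with no listed peak: the OmoMYC columns of the MYC panel are empty, SNHG15 has the 2 darkest cells (13.6 and 13.2), and 8 genes have an ATAC-Seq peak in all 3 SNF5 samples.

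PRO-Seq, a nuclear run-on assay that maps engaged RNA polymerases, was used to ask how transcription of the host genes differed between the constructs. Reads more than 1 kb past the start make up the gene body, and levels are given as gene body reads per kb, scaled to the mean depth of the 9 samples. The samples held 28444943 to 46957634 gene body reads. Each value is an average over the cells of a sample, so fewer transcribing cells and fewer polymerases per cell cannot be told apart. The labels do not say how samples were separated, although the study describes its PRO-Seq experiments as independent, and samples with the same number deviated together, so fold changes compare samples of the same number. SMARCB1 had 1 to 6 gene body reads in the EGFP and OmoMYC samples and 2870 to 4467 in the SNF5 samples, as labelled. Reads in the MYC gene body were at log2 0.95 ± 0.22 with OmoMYC (adjusted p = 0.0374, and 0.721 without pairing) and -0.46 ± 0.22 with SNF5 (adjusted p = 0.134), and reads of MYC and of the OmoMYC transgene, a form of the same gene, cannot be told apart.

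The host genes had some of the highest gene body densities of all genes in these cells. Their mean gene body density in EGFP cells ran from 888 reads per kb (SNHG6) to 3271 (SNHG1), where the median of all genes was 19.2. SNHG1 ranked 6th, ZFAS1 8th and GAS5 15th of all genes, and SNHG6, the lowest member, ranked 158th. Neighbours in that order mostly overlapped: SNHG1 (3271 ± 1183, SD, n = 3), ZFAS1 (3148 ± 439) and GAS5 (2361 ± 579) shared much of their range, as did SNHG7 (906 ± 122) and SNHG6 (888 ± 138). The density of SNHG8 rests on a gene body of 62 bp, with 71 to 133 reads in the EGFP samples. These snoRNAs have related copies elsewhere in the genome, and the authors removed reads with a mapping quality under 10, whose part in these densities was not tested.

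With OmoMYC, gene body reads fell at 9 of 9 host genes measured. The changes ran from -23.7% (ZFAS1) to -50.02% (SNHG8), and the median log2 fold change of the 9 was -0.50, against -0.003 over all 15060 genes tested. Of all genes tested, 4.52% fell and 3.98% rose (8.49% called in all; adjusted p under 0.05, edgeR's quasi-likelihood test with Benjamini-Hochberg adjustment over all genes). The density was lower with OmoMYC than with EGFP in 27 of 27 pairs of same-numbered samples (of all genes tested, 27.9% were lower and 26.3% higher in 3 of 3 pairs). For 6 genes (SNHG5, SNHG6, SNHG12, SNHG15, GAS5 and ZFAS1), every OmoMYC sample was below every EGFP sample, as was the case for 5.56% of all genes tested, while 5.91% were above without overlap.

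Among the hosts of box H/ACA snoRNAs, SNHG15, a short-lived RNA, read 1484, 1792 and 1936 reads per kb in EGFP samples 1, 2 and 3, 872, 999 and 1307 with OmoMYC and 1165, 1263 and 1331 with SNF5. Both constructs were below EGFP in every sample. The log2 fold change was -0.72 ± 0.08 (standard error; adjusted p = 0.00694) with OmoMYC and -0.46 ± 0.08 (adjusted p = 0.0027) with SNF5. SNHG8 read 1261, 2738 and 1618 in the EGFP samples, 586, 1366 and 856 with OmoMYC and 1017, 1860 and 1334 with SNF5. Its groups overlapped, since sample 2 was the highest in each, and it fell with OmoMYC (log2 -1.0004 ± 0.19, adjusted p = 0.0256). SNHG7 read 999, 767 and 951 with EGFP, 632, 459 and 883 with OmoMYC and 758, 567 and 1035 with SNF5. Here sample 2 was the lowest in each group, and the OmoMYC change was -0.50 ± 0.12 (adjusted p = 0.0373). SNHG12, which hosts snoRNAs of both classes, read 1243, 1621 and 1085 with EGFP, 778, 1028 and 848 with OmoMYC and 997, 1164 and 1022 with SNF5. It fell with OmoMYC (log2 -0.56 ± 0.08, adjusted p = 0.015) and, by less, with SNF5 (-0.30 ± 0.08, adjusted p = 0.0215).

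Among the hosts of box C/D snoRNAs, GAS5, known as a transcript that accumulates in growth-arrested cells, read 2106, 3024 and 1953 reads per kb with EGFP, 1494, 1936 and 1846 with OmoMYC and 1974, 2350 and 2119 with SNF5. The OmoMYC samples were all below the EGFP samples and the SNF5 samples were not. The log2 fold change was -0.41 ± 0.10 (adjusted p = 0.0402) with OmoMYC and -0.12 with SNF5 (95% confidence interval -0.31 to 0.07). SNHG1 read 2789, 4619 and 2404 with EGFP, 2031, 2764 and 2316 with OmoMYC and 2515, 3509 and 2570 with SNF5. Its groups overlapped, and it fell with OmoMYC (log2 -0.42 ± 0.11, adjusted p = 0.0456). ZFAS1 read 2988, 3645 and 2812 with EGFP, 2230, 2388 and 2544 with OmoMYC and 2896, 3186 and 2692 with SNF5. It fell with OmoMYC by 0.39 ± 0.08 on the log2 scale (adjusted p = 0.0295).

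SNHG5, a host of 2 snoRNAs, read 1358, 1533 and 1293 reads per kb with EGFP, 804, 863 and 1109 with OmoMYC and 1276, 1434 and 1251 with SNF5. All OmoMYC samples were the low ones (log2 -0.59 ± 0.12, adjusted p = 0.0304). SNHG6, which had no MYC peak at its start in any sample, read 924, 1004 and 735 with EGFP, 648, 597 and 690 with OmoMYC and 910, 929 and 884 with SNF5. Its OmoMYC samples were below the others as well (log2 -0.45 ± 0.11, adjusted p = 0.0386), and its SNF5 samples lay within the EGFP range (0.04, 95% confidence interval -0.17 to 0.24).

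**Figure D2:**
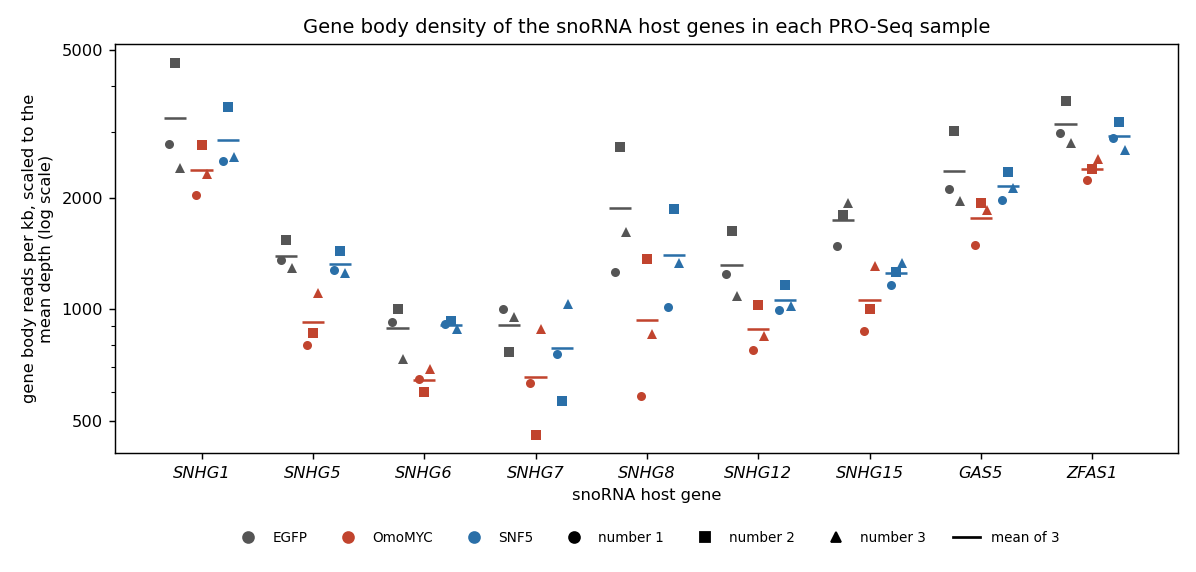
Gene body reads per kb, scaled to the mean depth (log axis), of the 9 snoRNA host genes in each PRO-Seq sample, coloured by construct, with the sample number as the symbol and the mean of 3 as a bar. The OmoMYC means lie lowest for each gene, from 645 (SNHG6) to 2387 (ZFAS1), and sample 3 of OmoMYC (triangles) is close to EGFP sample 3 for several genes.

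The decrease with OmoMYC differed in size between the pairs of samples. The median log2 ratio of the 9 genes to EGFP was -0.66 in pair 1, -0.74 in pair 2 and -0.14 in pair 3, while the median of all genes was -0.00087, -0.0036 and -0.0063. In pair 3 SNHG8 (-0.92) and SNHG15 (-0.57) stood lowest, and SNHG1 was at -0.05. The calls depended on the samples in the fit: the 9 adjusted p-values ran from 0.00694 to 0.0456, and 0 of 9 genes passed without EGFP 1, EGFP 2, OmoMYC 1 or OmoMYC 2. In each of those 4 fits all 9 had an unadjusted p under 0.05 and 6 to 9 of all genes passed. Without SNF5 1 or SNF5 2, 5 passed (276 and 271 of all genes were called lower), and without any other sample 9 did (1253 to 1919 of all genes lower). In the fit without pairing by number 0 passed (6 with an unadjusted p under 0.05, and 1 of all genes tested passed). DESeq2 called all 9 lower, and 1063 of all 15060 genes tested lower and 971 higher.

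With SNF5, 2 of 9 host genes fell, SNHG15 and SNHG12, a share near that of all genes tested, of which 17.1% fell and 17.3% rose (34.4% in all). The median log2 fold change of the 9 was -0.16, against -0.03 over all genes, and single values ran from -0.46 (SNHG15) to 0.04 (SNHG6). SNHG8 (-0.38, unadjusted p = 0.0679, adjusted p = 0.138) and SNHG7 (-0.24, unadjusted p = 0.0681, adjusted p = 0.138) did not pass. SNHG15 was the single member with every SNF5 sample below every EGFP sample, as 8.25% of all genes were (10.9% were above). The density was lower with SNF5 than EGFP in 23 of 27 pairs, and in 3 of 3 pairs for 5 members (32.1% of all genes were lower and 27.1% higher in 3 of 3), and the 4 exceptions, at SNHG1, SNHG6, SNHG7 and GAS5, were all in pair 3. SNHG15 passed whichever sample was left out. Without EGFP 3, 5 genes passed (GAS5, SNHG1 and SNHG7 besides), and without EGFP 1, EGFP 2, SNF5 1 or SNF5 2 only SNHG15 did. Of all genes, 2937 of 15046 were lower and 2752 higher without EGFP 3, and 1031 to 1518 were lower in those other 4 fits. Without pairing 0 passed (1 with an unadjusted p under 0.05, and 7 of all genes lower and 216 higher). DESeq2 called 2 (2587 of all genes lower and 2601 higher).

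The 2 constructs were then compared with each other, since both comparisons above share the EGFP samples. The density was higher with SNF5 than with OmoMYC in 27 of 27 pairs, and in 3 of 3 pairs for 26.6% of all genes tested. The test called 5 of 9 genes higher with SNF5, where 11.4% of all genes were higher and 7.56% lower (19% in all): SNHG5 (log2 0.51 ± 0.12, adjusted p = 0.0212), SNHG6 (0.49 ± 0.11, adjusted p = 0.0132), ZFAS1 (0.29 ± 0.08, adjusted p = 0.0372), SNHG12 (0.27 ± 0.08, adjusted p = 0.049) and SNHG15 (0.26 ± 0.08, adjusted p = 0.0499). SNHG8 had the largest difference, 0.62 ± 0.19, and did not pass (adjusted p = 0.0552). GAS5 (0.29 ± 0.10), SNHG1 (0.26 ± 0.11) and SNHG7 (0.26 ± 0.12) did not pass either. The count was 0 without OmoMYC 1 or OmoMYC 2, 1 without SNF5 1 or SNF5 2, 2 without EGFP 1, 9 without EGFP 3, 3 with TMM scaling and 0 without pairing. Calls over all genes moved too: without EGFP 3, 2081 of 15046 were higher and 1662 lower, and without OmoMYC 1, 1008 of 15095 and 322.

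**Figure D3:**
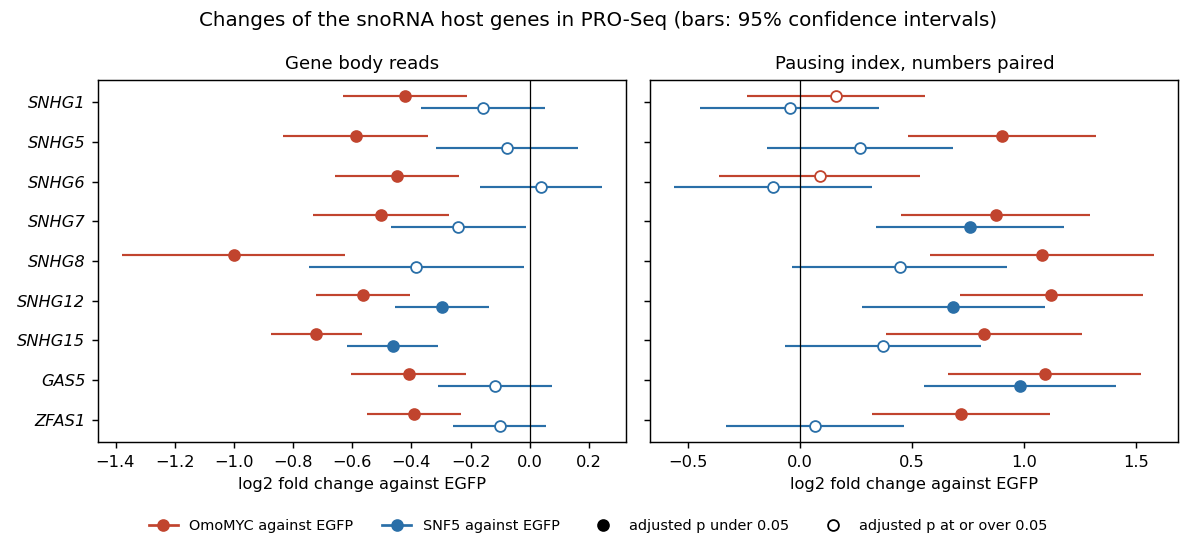
Log2 fold change against EGFP of gene body reads (left) and of the pausing index with samples paired by number (right) for the 9 snoRNA host genes. Bars are 95% confidence intervals by a normal approximation, which is narrower than the test allows. Filled points passed an adjusted p of 0.05. On the left the 9 OmoMYC values lie between -1.0004 and -0.39 and all are filled, and 2 of the SNF5 values are. On the right 7 OmoMYC and 3 SNF5 values are filled.

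A gene on the opposite strand starts within 2 kb of the start of 3 members. SLC3A2, which encodes the heavy chain of amino acid transporters and starts at position -124 from SNHG1, fell with OmoMYC (log2 -0.29 ± 0.06, adjusted p = 0.0256) and with SNF5 (-0.28 ± 0.06, adjusted p = 0.00583). ZBTB37, a zinc finger gene that starts at position -368 from GAS5, was at 0.13 ± 0.13 and -0.15 ± 0.13, and neither passed. ZNFX1, a helicase gene whose start lies 41 bp inside ZFAS1, was at -0.21 ± 0.07 (adjusted p = 0.0962) and -0.20 ± 0.07 (adjusted p = 0.0625). RCC1, the exchange factor of the GTPase Ran, is listed as a transcript (NR_030725) that overlaps SNHG3 on the same strand and starts at position -37 from it, so reads of the 2 genes cannot be told apart. Its gene body count changed by -0.14 ± 0.06 with OmoMYC (adjusted p = 0.141) and 0.01 ± 0.06 with SNF5 (adjusted p = 0.893), and none of its values are given as those of SNHG3.

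Other genes of the pathway were described from 3 lists, to be read against the 4.52% of all genes tested that fell and 3.98% that rose with OmoMYC, and the 17.1% that fell and 17.3% that rose with SNF5. Of 7 further non-coding hosts tested, 3 fell and 0 rose with OmoMYC: EPB41L4A-AS1 (log2 -0.55 ± 0.13, adjusted p = 0.0401), SNHG16 (listed as LOC100507246, -0.52 ± 0.13, adjusted p = 0.0451) and SNHG17 (listed as LOC388796, -0.48 ± 0.08, adjusted p = 0.0232). With SNF5 1 of the 7, SNHG17, passed, a share near that of all genes (-0.26 ± 0.08, adjusted p = 0.0405). The medians were -0.38 and -0.26. Of 46 protein-coding hosts tested, 25 fell and 0 rose with OmoMYC (median -0.33), and 17 fell and 0 rose with SNF5 (median -0.17). The largest decreases among them with OmoMYC were those of the ribosomal protein genes RPL39 (-0.72 ± 0.10, adjusted p = 0.0147) and RPL12 (-0.67 ± 0.10, adjusted p = 0.0165) and of EEF1B2, a subunit of the elongation factor complex (-0.65 ± 0.10, adjusted p = 0.0188). With SNF5 they were TNPO2, a nuclear import receptor (-0.57 ± 0.17, adjusted p = 0.0288), NCL, which encodes nucleolin (-0.49 ± 0.09, adjusted p = 0.00431), and NOP56 (-0.46 ± 0.09, adjusted p = 0.00469).

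Of 18 genes for proteins of the snoRNA-protein complexes, 8 fell and 0 rose with OmoMYC (median -0.26, where 4.52% of all genes fell), and 11 fell and 0 rose with SNF5 (median -0.30, where 17.1% fell). NOP56, a core protein of box C/D complexes and itself a host gene, was at -0.58 ± 0.09 with OmoMYC (adjusted p = 0.0165). NHP2, a core protein of box H/ACA complexes, fell with OmoMYC (-0.56 ± 0.10, adjusted p = 0.0255) and SNF5 (-0.54 ± 0.10, adjusted p = 0.00473). NOLC1, a nucleolar chaperone of these complexes, fell with OmoMYC (-0.66 ± 0.10, adjusted p = 0.0152). NHP2L1, which encodes the protein that binds the kink-turn of box C/D snoRNAs, fell with SNF5 (-0.49 ± 0.08, adjusted p = 0.00198). With SNF5 the median of this list was thus lower than that of the 9 members, and with OmoMYC it was higher, which was not tested.

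Members with and without a MYC peak were set beside the other genes. With OmoMYC, 19.4% of the 832 tested genes with a peak in both EGFP samples fell and 0.962% rose, against 3.65% and 4.15% of the 14228 others. With SNF5, 42.5% of the 832 fell and 2.64% rose, against 15.6% and 18.2% of the others. The 6 members with a peak in both EGFP samples fell with OmoMYC, as did SNHG5 and SNHG12, with a peak in 1, and SNHG6, with none at any annotated start. With SNF5, SNHG15 alone of these 6 fell, and it had the largest MYC enrichment of the members. SNHG1, SNHG7, SNHG8, GAS5 and ZFAS1 did not pass. SNHG12, with a peak in EGFP sample 2 only (4.57), fell too. SNHG1, second in MYC enrichment in EGFP sample 1, was at -0.16 (95% confidence interval -0.37 to 0.05). Its summits (positions -150 and -178) lay nearer the start of SLC3A2 (position -124) than its own, so this peak cannot be assigned to either gene alone. The same holds for ZFAS1. Its summits, at positions 11 and 64 in EGFP samples 1 and 2, lay on either side of the start of ZNFX1 (position 41).

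Polymerases near the promoter, counted in the densest 50 bp window within 500 bp of the start, did not change by the test at any of the 9 members (0 of 9 for each construct), where 2.62% of 11241 genes tested rose and 1.67% fell with SNF5 (4.3% in all) and 1.58% rose and 0.169% fell with OmoMYC (1.75% in all). Between SNF5 and OmoMYC it was 0 of 9 as well, with 0.48% of genes higher and 0.356% lower (0.836% in all), and 0 members had an unadjusted p under 0.05 by edgeR or DESeq2. By edgeR 2 members had an unadjusted p under 0.05 with each construct, and DESeq2 called 0 (3 with an unadjusted p under 0.05 with each). These counts differed far more between sample numbers than between constructs. GAS5 had 645, 9562 and 3617 promoter-proximal reads at the mean depth in EGFP samples 1, 2 and 3, 522, 18199 and 9421 with OmoMYC and 663, 25449 and 7837 with SNF5. In each group sample 1 was the lowest and sample 2 the highest, and totals over all genes ran the same way in each group, from 518900 to 672874 in samples 1 and from 2923648 to 3386528 in samples 2. GAS5 had the largest log2 fold changes of the members, 0.83 ± 0.27 with SNF5 (adjusted p = 0.0674) and 0.66 ± 0.27 with OmoMYC (adjusted p = 0.218). SNHG7 was at 0.52 ± 0.21 and 0.38 ± 0.21, and SNHG12 at 0.38 ± 0.23 and 0.56 ± 0.23. The 9 values ran from -0.20 to 0.83 with SNF5 and from -0.36 to 0.66 with OmoMYC, where the medians of all genes were -0.05 and 0.12 and those of the members 0.06 and 0.30. GAS5 passed with SNF5 when scaled by promoter-proximal counts, with no filter on counts, without EGFP 1 and without OmoMYC 3, and with OmoMYC with no filter and without EGFP 1.

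The pausing index is the density of reads in the promoter-proximal window over that of the gene body. It is a ratio and not a time, and it rises with more reads near the promoter or with fewer in the gene body. At SNHG8 it was 8.44, 7.18 and 7.41 in the EGFP samples, 15.8, 18.4 and 14.3 with OmoMYC and 10.9, 13.3 and 7.68 with SNF5. SNHG8 was the single member with all OmoMYC samples above all EGFP samples. At GAS5 it was 6.13, 63.3 and 37.05 with EGFP, 6.98, 188 and 102 with OmoMYC and 6.71, 217 and 74.0 with SNF5. At SNHG12 it was 6.27, 114 and 68.9 with EGFP, 15.5, 340 and 97.0 with OmoMYC and 10.2, 249 and 80.5 with SNF5. In these 2 genes the groups overlapped widely, and the index was higher than in the EGFP sample of the same number in 3 of 3 pairs with both constructs. SNHG6, with 2.64, 4.09 and 3.67 in the EGFP samples, had the lowest mean index but for SNHG15 (1.44, 4.74 and 2.40). Over the 9 members the index was higher in 24 of 27 pairs with OmoMYC and in 21 of 27 with SNF5. The shares of all genes with such pairs, or without overlap, were not computed for the index. Over all genes the median log2 change of the index was 0.14 with OmoMYC and 0.01 with SNF5.

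The test without pairing by number called 0 members with either construct (0 with an unadjusted p under 0.05, by edgeR and by DESeq2), and 0 of all 11171 genes tested. Its log2 change of the index at GAS5 was 1.05 ± 1.68 with SNF5 and 1.22 ± 1.68 with OmoMYC, and the median of the 9 members was 0.35 and 0.84, against 0.01 and 0.14 over all genes. With samples paired by number, 7 of 9 members rose with OmoMYC, where 2.18% of genes rose and 0.0806% fell. They were SNHG12 (1.12 ± 0.21, adjusted p = 0.00156), GAS5 (1.09 ± 0.22, adjusted p = 0.00378), SNHG8 (1.08 ± 0.26, adjusted p = 0.0132), SNHG5 (0.90 ± 0.21, adjusted p = 0.0136), SNHG7 (0.87 ± 0.22, adjusted p = 0.018), SNHG15 (0.82 ± 0.22, adjusted p = 0.0344) and ZFAS1 (0.72 ± 0.20, adjusted p = 0.043). In each of them the adjusted p reached 1 in other fits, the one without pairing among them. SNHG1 (0.16, 95% confidence interval -0.24 to 0.56) and SNHG6 (0.09, -0.36 to 0.54) did not pass. With SNF5 3 rose, GAS5 (0.98 ± 0.22, adjusted p = 0.0054), SNHG7 (0.76 ± 0.21, adjusted p = 0.0317) and SNHG12 (0.68 ± 0.21, adjusted p = 0.0486), where 2.02% of genes rose and 1.64% fell.

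Between SNF5 and OmoMYC the paired test called 0 members (5 with an unadjusted p under 0.05, and 0.125% of genes higher and 1.1% lower), and the index was lower with SNF5 in 25 of 27 pairs. Over all genes the median log2 difference was -0.13, and the share with such pairs was not computed. The paired calls with OmoMYC went to 0 without EGFP 2 or OmoMYC 2 and to 2 without OmoMYC 1, and those with SNF5 went to 0 without EGFP 2 or SNF5 2, to 1 without OmoMYC 2, SNF5 1 or SNF5 3 and stayed at 2 or 3 without the others. The gene body decrease is part of the index, so the rise of the index with OmoMYC is not wholly a result apart from it. How much each region contributed differed between members. With OmoMYC the promoter-proximal and gene body counts changed by 0.06 ± 0.21 and -1.0004 ± 0.19 at SNHG8. They changed by 0.10 ± 0.22 and -0.72 ± 0.08 at SNHG15. At GAS5, with the largest promoter-proximal change of the members, they changed by 0.66 ± 0.27 and -0.41 ± 0.10. The medians of the 9 members were 0.30 and -0.50.

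**Figure D4:**
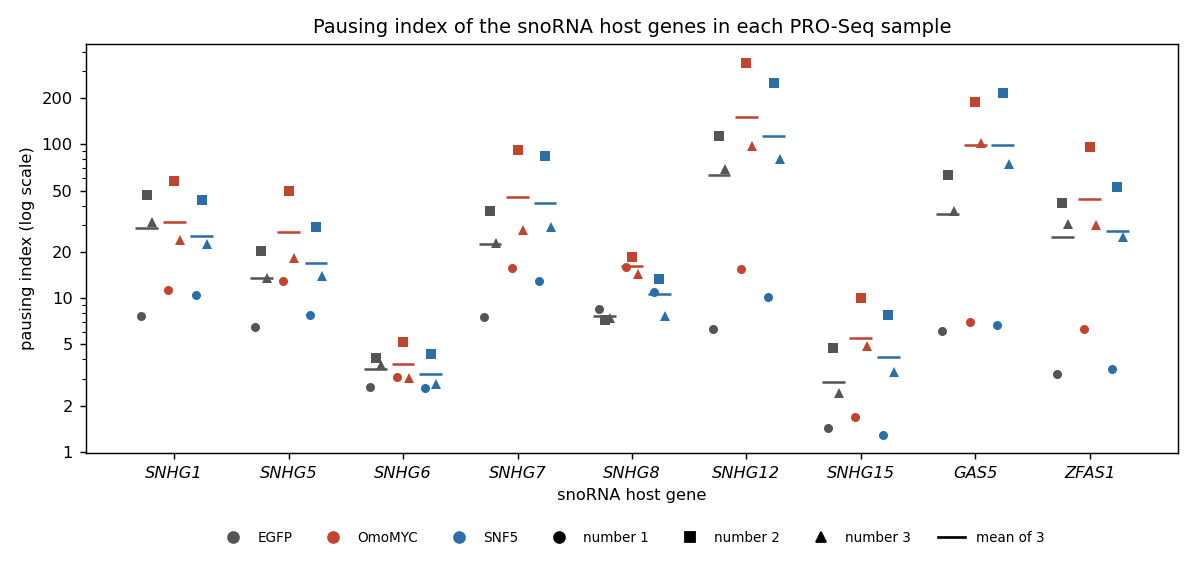
Pausing index (log axis) of the 9 snoRNA host genes in each PRO-Seq sample, coloured by construct, with the sample number as the symbol and the mean of 3 as a bar. Sample 1 (circles) lies lowest and sample 2 (squares) highest in most groups, and at SNHG8 the OmoMYC values (14.3 to 18.4) lie above all EGFP values (7.18 to 8.44).

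ATAC-Seq, which marks accessible DNA, listed peaks at the starts of most members in all 3 constructs. All 3 EGFP samples had one within 1 kb of the start at 6 members (SNHG5, SNHG6, SNHG8, SNHG15, GAS5 and ZFAS1), where 30.7% of 17181 genes did. With OmoMYC it was 5 members (27.4% of genes), since SNHG6 had none in sample 1, and with SNF5 8 (44.9%), with SNHG3 and SNHG12 added. In the whole genome the SNF5 samples list 22722 to 33596 peaks, the EGFP samples 9208 to 17817 and the OmoMYC samples 7260 to 23684, and the part of this in the members' counts was not tested. The fold enrichment at SNHG15 was 5.19, 6.87 and 5.42 in the EGFP samples, 4.87, 7.002 and 6.26 with OmoMYC and 8.17, 7.48 and 7.32 with SNF5. SNHG15 was thus higher in each SNF5 sample than in any other. SNHG12 was too, with 6.45, 5.82 and 6.28 with SNF5 and at most 5.15 in the other samples that listed a peak. The share of all genes with this pattern was not computed. At GAS5 it was 8.23, 6.75 and 7.11 with EGFP, 5.85, 8.54 and 7.24 with OmoMYC and 6.82, 7.61 and 7.48 with SNF5, which overlapped. At SNHG5 the range over the 9 samples was 6.10 to 8.95. SNHG7 had a peak in SNF5 sample 2 alone (4.55). SNHG1 had one in EGFP 2, OmoMYC 2, SNF5 1 and SNF5 2, and SNHG3 in EGFP 2, OmoMYC 2 and the 3 SNF5 samples. No read counts at peaks were used here, so these enrichments were not tested between constructs.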

How the data were processed

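G401 cells expressing EGFP, OmoMYC or SNF5 were grouped by the construct in their labels. The PRO-Seq counts were deposited as whole reads per transcript: the authors trimmed reads with Cutadapt 1.18 and the FASTX-Toolkit 0.0.14, kept those over 15 bp, removed rRNA reads and those with a mapping quality under 10, and aligned to hg19 with Bowtie2 2.3.4.1 (tool versions per the submitters' processing notes). The deposited gene body density is the count over the gene body length (99.86% of values within 1%) and was recomputed from counts with a scaling for depth. The authors ran MACS2 (2.1.1.20160309) on every sample separately, with a q of 0.01 for MYC ChIP-Seq (hg19) and 0.001 for ATAC-Seq (hg38); each deposited peak has a fold enrichment and a −log10 q.

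Counts were tested with edgeR 4.0.16 (R 4.3.3; quasi-likelihood test, Benjamini-Hochberg adjustment over all genes, threshold 0.05) with construct and sample number as terms, all 9 samples, relative log expression scaling of gene body totals and a mean of at least 10 counts. Every adjusted p in the text comes from this tool unless DESeq2 1.42.0 is named. The pausing index was tested as the interaction of region and construct, without and with sample numbers paired. Same-numbered samples deviated together: over genes, deviations from the group mean correlated at 0.767 to 0.889 in 9 same-numbered pairs (gene body) and at -0.675 to 0.128 in 18 others, and at 0.69 to 0.856 and -0.626 to -0.0418 for promoter-proximal counts. The study states that its tests of both regions accounted for a batch effect. What the batch was, and whether the sample numbers mark it, is not given in the sources used here. Values were computed with Python 3.11.15, NumPy 2.4.6 and pandas 2.3.3.

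A MYC peak was assigned to a gene by its summit and an ATAC-Seq peak by any overlap within 1 kb of the start. For ATAC-Seq the starts of members were GENCODE transcript starts, and those of all genes were RefSeq starts on GRCh38.p14. The ATAC-Seq counts of members and shares of all genes thus rest on differently defined starts. Exons and introns are those of GENCODE v44 mapped to GRCh37. Host genes and 3 related lists (other non-coding hosts, protein-coding hosts, snoRNA-protein complex genes) were described whole, and from each list the 3 called genes with the largest change are named. The members and lists were chosen with earlier results of these data known. Alternatives were TMM scaling, scaling by promoter-proximal counts, DESeq2, no filter on counts, fits of 6 samples, leaving out each sample, and other distances and thresholds for peaks.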

Additional observations from a re-analysis of the deposited data

How the results depend on the processing

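The pairing of samples by number changed most calls. Without the replicate block 0 of 9 host genes passed in gene body reads with SNF5, 0 with OmoMYC and 0 between SNF5 and OmoMYC, while the pausing index went from 0 to 3 genes with SNF5 and to 7 with OmoMYC when the numbers were paired. With 1 sample left out, the gene body counts of members ran from 1 to 5 with SNF5, from 0 to 9 with OmoMYC and from 0 to 9 between the 2. Fitting only 6 samples gave 1 with SNF5, and TMM scaling gave 3 between SNF5 and OmoMYC. Promoter-proximal calls went from 0 to 1 with SNF5 (scaling by these counts 1, no filter 1, 1 sample left out 0 to 1) and with OmoMYC (no filter 1, 1 sample left out 0 to 1). The leave-outs of the paired pausing index were chosen after seeing the data: members ran from 0 to 3 with SNF5, from 0 to 7 with OmoMYC and from 0 to 2 between them. Members with a MYC peak in any SNF5 sample numbered 2 at a −log10 q of at least 5, and 0 to 4 with 1 sample left out.

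Over all alternatives, members with values of both signs numbered 2 of 9 with SNF5 and 0 with OmoMYC in gene body reads, 3 and 2 in promoter-proximal reads and 7 and 4 in the pausing index. Of the values given for single members, these changed sign on leaving out 1 sample, and none of them had passed. In gene body reads with SNF5 they were GAS5 (log2 -0.26 to 0.0086) and SNHG6 (-0.10 to 0.16). In the unpaired pausing index with SNF5 it was GAS5 (-0.19 to 2.31). In the paired pausing index with SNF5 they were SNHG6 (-0.24 to 0.048), SNHG1 (-0.27 to 0.20) and ZFAS1 (-0.14 to 0.34). With OmoMYC they were SNHG6 (-0.026 to 0.26) and SNHG1 (-0.061 to 0.40). Medians changed sign too. The members' median with SNF5 in the unpaired index, 0.35, went to -0.19 without EGFP 1 and -0.29 without SNF5 2. Their promoter-proximal median with SNF5, 0.06, went to -0.07 without EGFP 2. Without EGFP 1 the all-gene medians of the unpaired index were -0.54 with SNF5 and -0.42 with OmoMYC. The cause was not tested. The counts of SNHG8, with a gene body of 62 bp, and the promoter-proximal totals of samples 1 (518900 to 672874 reads) limit the precision of these values.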
